A study of Homo sapiens with 3 samples.

Results

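Accessible chromatin was described at 10 genes of haemato-endothelial transcription factors, GATA2, TAL1, LYL1, LMO2, HHEX, MECOM, BCL6B, MEF2C, RUNX1 and GFI1, in hCMEC/D3, an immortalized human line of brain microvascular endothelial cells. The genes were taken by symbol from a RefSeq gene table of GRCh38.p14, in which all 10 matched, among 20037 protein-coding genes. The material was 1 ATAC-seq library, ATAC replicate 2, of cells at passages 4 to 6, grown to confluence on collagen, and the labels name no treatment or genetic change. ATAC-seq cuts and tags open DNA with the Tn5 transposase, and the deposited peak list held 106415 accessible regions from 22188172 retained tags. There was no second group or second ATAC library, so the values have no replicate error and no test between samples was possible. In such a bulk library, opening in few cells and weak opening in all cells cannot be told apart. The 2 RNA libraries of the series were not used here.

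Endothelial and blood cells arise from common or closely related precursors in the embryo, and a shared set of transcription factors works in both. GATA2, a zinc finger factor that binds GATA motifs, joins with the basic helix-loop-helix factors TAL1 or LYL1, which bind E-boxes, through the bridging protein LMO2. ETS family factors and RUNX1 occupy many of the same enhancers in blood progenitors. In the embryo, RUNX1 and the repressor GFI1 drive the step in which haemogenic endothelium loses its endothelial programme and gives rise to blood.

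A window was drawn around each gene, from 50 kb before to 50 kb after it, and each peak that touched the window was placed at a gene end (within 1 kb of either end), inside the gene or in the flank. The pileup of a peak is its mean height in tags, and its fold sets that height against a local background from the same library, with 1 tag added to both. The −log10 q given with some peaks is the caller's adjusted significance. All 3 are the authors' values. The windows held 172 peaks, of which 12 lay at gene ends, 74 inside the genes and 86 in the flanks. Every gene had at least 5 peaks in its window, the number at GFI1 (78.2% of all protein-coding genes had at least 5), and the highest number was 41 at MECOM, the longest gene.

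The sequences just before the annotated start sites show which factor motifs stand where accessibility was or was not called. RefSeq start windows were at hand for 8 of the 10 genes, 20 starts in all, and LMO2 and BCL6B had no entry. A start was counted as under a peak where a peak touched the 300 bases from 250 before to 50 after it. The 250 bases before 6 of these starts are given 5′ to 3′ along the gene, in GRCh38.p14, chosen to show the motif matches at starts of 5 genes. Capitals mark matches on either strand to GATAA (GATA factors, TTATC on the other strand), CAGATG (the E-box of TAL1 and LYL1), CGGAAG (ETS factors), TGTGGT (RUNX factors), TGANTCA (AP-1) and AAATCA (GFI1).
TAL1, chr1:47232336-47232585, minus strand, under a peak: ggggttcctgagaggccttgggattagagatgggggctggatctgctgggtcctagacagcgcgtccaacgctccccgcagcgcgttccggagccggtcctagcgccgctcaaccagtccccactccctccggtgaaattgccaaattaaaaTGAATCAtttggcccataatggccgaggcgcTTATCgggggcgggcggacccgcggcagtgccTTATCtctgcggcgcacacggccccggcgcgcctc
LYL1, chr19:13102859-13103108, minus strand, under a peak: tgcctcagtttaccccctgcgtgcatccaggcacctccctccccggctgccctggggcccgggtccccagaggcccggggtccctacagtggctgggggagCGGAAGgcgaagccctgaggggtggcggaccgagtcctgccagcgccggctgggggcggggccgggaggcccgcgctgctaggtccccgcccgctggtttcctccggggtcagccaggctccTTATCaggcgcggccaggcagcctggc
HHEX, chr10:92689705-92689954, plus strand, under a peak: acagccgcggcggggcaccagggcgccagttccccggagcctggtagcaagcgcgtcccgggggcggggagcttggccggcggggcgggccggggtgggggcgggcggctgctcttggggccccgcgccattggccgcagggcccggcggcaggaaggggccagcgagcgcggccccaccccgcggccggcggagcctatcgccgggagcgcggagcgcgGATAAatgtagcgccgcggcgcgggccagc
MECOM upstream start, chr3:169663713-169663962, minus strand, with no peak: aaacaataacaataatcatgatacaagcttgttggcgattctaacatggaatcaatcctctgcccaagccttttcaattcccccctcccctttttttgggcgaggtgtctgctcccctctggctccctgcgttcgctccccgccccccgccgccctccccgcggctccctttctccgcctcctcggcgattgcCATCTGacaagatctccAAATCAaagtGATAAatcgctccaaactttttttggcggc
MECOM internal start, chr3:169147472-169147721, minus strand, under a peak: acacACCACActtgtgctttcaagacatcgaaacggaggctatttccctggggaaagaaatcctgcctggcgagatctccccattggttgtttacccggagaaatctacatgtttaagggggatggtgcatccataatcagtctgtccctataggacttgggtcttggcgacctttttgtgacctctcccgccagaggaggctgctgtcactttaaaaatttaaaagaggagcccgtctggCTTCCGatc
MEF2C internal start, chr5:88884537-88884786, minus strand, under a peak: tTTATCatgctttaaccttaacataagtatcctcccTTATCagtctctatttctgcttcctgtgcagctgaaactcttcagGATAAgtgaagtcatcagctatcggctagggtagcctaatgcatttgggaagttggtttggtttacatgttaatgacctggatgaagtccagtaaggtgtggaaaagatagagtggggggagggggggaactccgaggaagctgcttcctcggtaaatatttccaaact

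The TAL1 window held 1 AP-1 match, with its first base 98 bases before the start, and 2 GATA matches at 67 and 35 bases. LYL1 held an ETS match at 149 bases and a GATA match at 27 bases. HHEX held 1 GATA match, at 30 bases. At MECOM, the upstream window held an E-box, a GFI1 and a GATA match at 57, 40 and 30 bases, and the internal window a RUNX match at 246 and an ETS match at 9 bases. The MEF2C window held 3 GATA matches, at 249, 214 and 169 bases. GATAA occurred before 8 of the 20 starts, in 5 of 8 genes, and before 16.8% of all 22199 annotated starts of protein-coding genes. TGTGGT occurred before 3 of 20 starts, in 3 genes, against 9.36% of all starts, and CGGAAG before 6 of 20, in 4 genes, against 20.2%. The second start of TAL1, 0.62 kb inside the gene, had 3 RUNX matches, at 188, 90 and 56 bases. CAGATG was found before 1 start against 10.2% of all, AAATCA before 2 against 9.14%, and TGANTCA before 2 against 5.36%. A MEF2 motif and a combined motif of an E-box part followed by GATA, whose end overlaps GATAA, were found before none of the 20 starts, and before 0.122% and 1.29% of all starts. The GC box GGGCGG, not capitalised, stood before 11 of 20 starts against 53.7% of all. Windows of 1 gene share sequence context, so the 20 windows are not independent, and a match is only a string of letters.

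**Figure D1:**
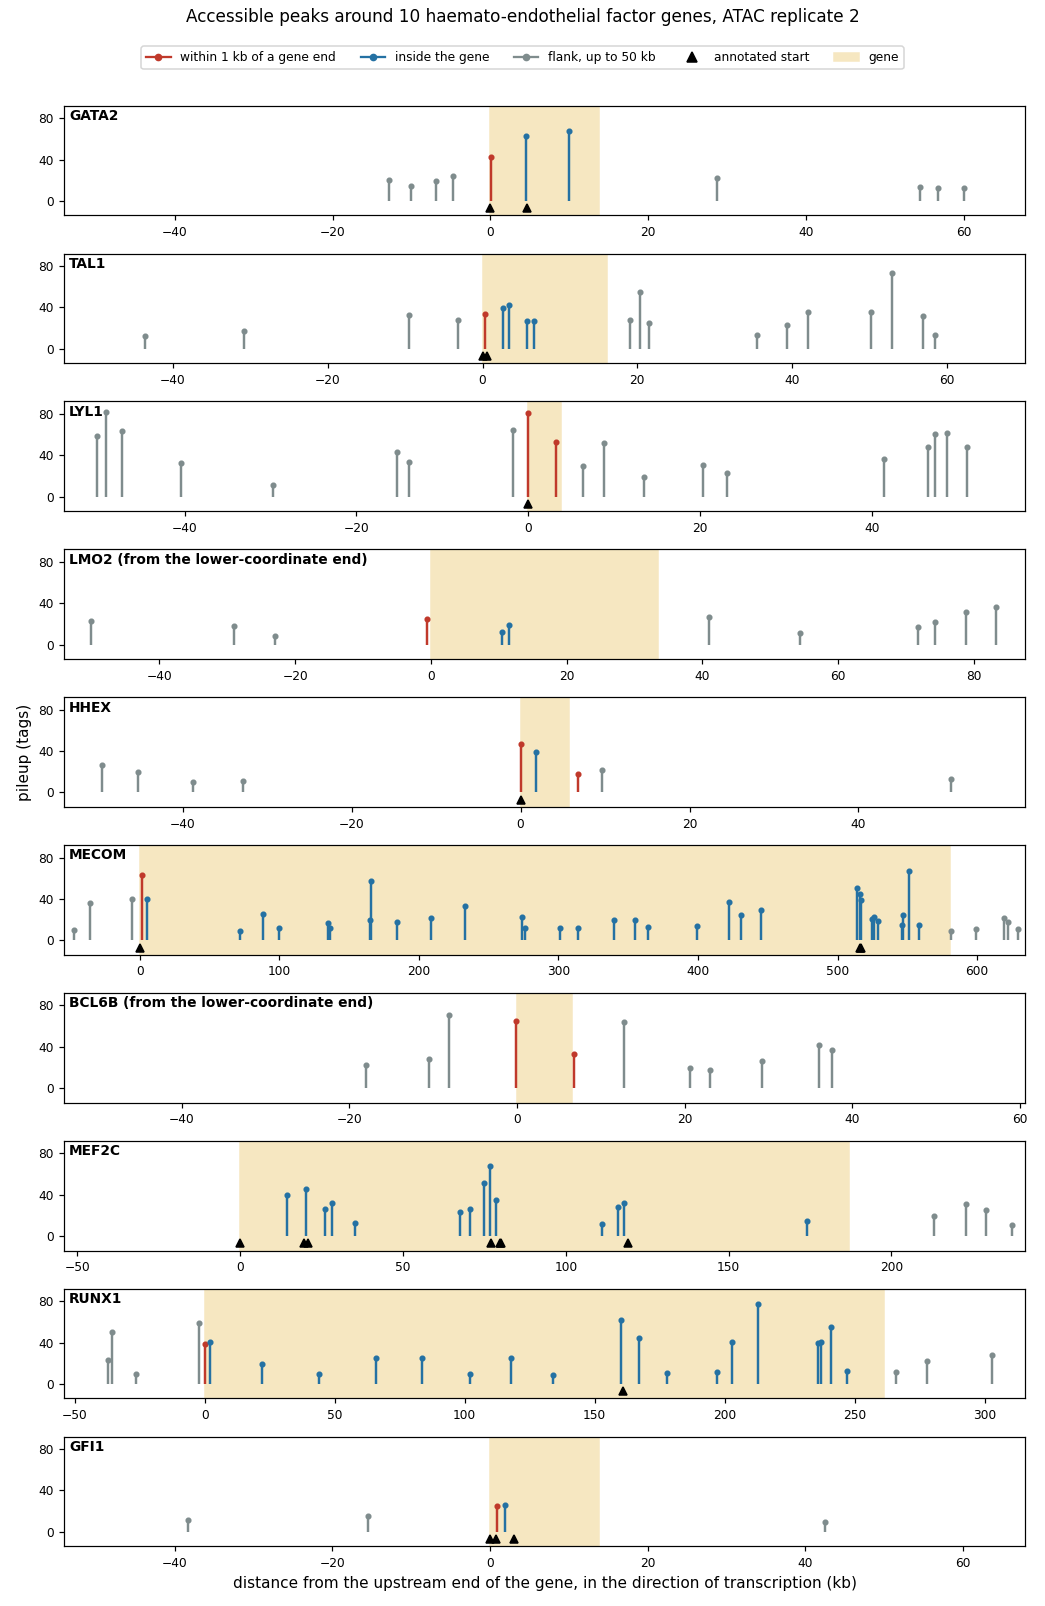
Pileup in tags (vertical axis) of each peak against its distance in kb from the upstream end of the gene along transcription (horizontal axis), in ATAC replicate 2; LMO2 and BCL6B are drawn from their lower-coordinate end. Shading is the gene, triangles are annotated starts; peaks inside MECOM, MEF2C and RUNX1 are spread over the gene, while at LYL1 18 of 20 peaks lie in the flanks.

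Of the GATA and E-box complex, GATA2 had 11 peaks, 1 at an end, 2 inside and 8 in the flanks. The gene spans chr3:128479422-128493201 on the minus strand. Its upstream start lay under a peak at chr3:128492852-128493425, 574 bp long, with 42.4 tags in pileup at 2.09-fold. The internal start, 4.67 kb downstream, lay under a wider peak of 1888 bp at chr3:128487771-128489658, with 63.1 tags in pileup at 2.27-fold, which also touched an end of the antisense gene GATA2-AS1. The highest pileup of the locus, 67.8 tags at a fold of 3.26 and −log10 q of 15.2, was not at a start but inside the gene, at chr3:128482872-128483641, with its middle 9.94 kb downstream of the upstream end. GATA2 is known to carry an intronic enhancer used in blood progenitors and endothelium; whether this peak covers it was not tested. In the flanks the pileup ran no higher than 23.9 tags, at a peak centred 4.72 kb upstream. No flank peak lay at an end of another protein-coding gene.

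TAL1, which spans chr1:47216290-47232335 on the minus strand, had 19 peaks, with 1 at an end, 4 inside and 14 in the flanks. A single peak of 1173 bp at chr1:47231401-47232573 covered both annotated starts, with 33.4 tags in pileup at 2.36-fold. The 4 inside peaks were centred 2.67 to 6.7 kb from the upstream end, with pileups of 39.3, 42.0, 27.0 and 26.9 tags in that order. The tallest peaks lay beyond the gene. A group of 3 was centred 19.1 to 21.5 kb downstream of the upstream end, of which chr1:47211654-47212498 had 54.4 tags and a fold of 4.85. The highest, with 73.4 tags, a fold of 5.94 and −log10 q of 34.0, was chr1:47179082-47179841, centred 52.9 kb downstream and touching ends of the noncoding genes CYP4A22-AS1 and LINC00853. Enhancers downstream of TAL1 that act in blood stem cells and endothelium are known from other work; which of these peaks cover them was not tested. A peak at an end of PDZK1IP1, 42.0 kb downstream, had 35.4 tags.

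LYL1, the close relative of TAL1, is a short gene of 3.83 kb at chr19:13099033-13102858 on the minus strand, and its window held 20 peaks. Its start lay under the peak chr19:13102481-13103279 of 799 bp, with a pileup of 81.3 tags, a fold of 3.86 and −log10 q of 24.9. That pileup was above 94.4% of the best end peaks of the 14595 protein-coding genes that had one. A second end peak, at the far end of the gene, had 53.1 tags and also lay at an end of the neighbour NFIX. The other 18 peaks were in flanks crowded with genes. The window touched 5 other protein-coding genes, and 5 flank peaks lay at ends of TRMT1, NACC1, STX10 or IER2. The highest flank peak, with 81.4 tags, was chr19:13151556-13152308 inside IER2, an immediate early gene, 49.1 kb upstream of LYL1. Another 10 flank peaks lay inside NFIX.

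LMO2, the bridging protein, had lower peaks. The gene spans chr11:33858576-33892076, its window touched no other protein-coding gene, and it held 12 peaks with pileups of 8.0 to 36.0 tags and a median of 20.2. The end peak chr11:33857871-33858184 was short, at 314 bp, with a pileup of 24.7 tags but a fold of 7.61. Inside the gene were 2 peaks, centred 10.5 and 11.5 kb from the lower-coordinate end, with 12.1 and 18.8 tags; the second was 1172 bp long, at chr11:33869485-33870656. No peak lay within 1 kb of the upper-coordinate end. The nearest beyond that end, 7.44 kb away, had 26.5 tags and the highest fold of the locus, 8.16. For this peak and the end peak, the background was at the lowest value the caller allowed, 2.37 tags. The highest pileup, 36.0 tags, was at chr11:33941606-33942097, 49.8 kb beyond the upper end.

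Among the factors with early endothelial roles, HHEX, a homeobox gene of blood and endothelial precursors at chr10:92689955-92695647 on the plus strand, had 9 peaks. Its start was covered by a peak of 2233 bp, chr10:92688929-92691161, with 47.1 tags and a fold of 3.13. A second peak followed 1.87 kb into the gene with 39.3 tags, and another at the far end had 17.9 tags. Outside the gene the pileups were 10.2 to 26.7 tags, and the 40.9 kb from chr10:92699914 to 92740858 held no peak.

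BCL6B, a zinc finger repressor gene enriched in endothelium, lies at chr17:7023050-7029644 among 6 other protein-coding genes and had 11 peaks. The end peak chr17:7021787-7024055 was 2269 bp long with 64.7 tags and a fold of 3.79. The peak at the other end, of 387 bp, had 33.5 tags and a fold of 7.13. No further peak lay inside the gene, and 4 of the 9 flank peaks were at ends of RNASEK, BACC1, SLC16A13 or SLC16A11. The highest flank peak, with 71.1 tags at chr17:7014343-7015498, touched ends of BACC1, RNASEK and the microRNA host gene MIR497HG.

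MEF2C, a MADS box factor of heart, vessel and blood lineages, was the member without a peak at a gene end. It spans 187 kb at chr5:88717117-88904105 on the minus strand, and 14 of its 18 peaks lay inside. The annotated start at the upstream end was 14054 bp from the nearest peak. Internal starts were covered instead. A peak of 1739 bp at chr5:88883035-88884773, with 45.8 tags and a fold of 3.14, covered the starts 19.6 and 20.9 kb into the gene. The highest pileup, 68.0 tags at a fold of 5.53 and −log10 q of 29.8, was at chr5:88827066-88827605 over the start 76.9 kb into the gene. The start 119 kb into the gene lay under a peak of 1410 bp with 31.5 tags. The starts at 79.8 and 80.2 kb had none, the nearest peak being 624 and 1041 bp away. Before the start at 119 kb stood 2 AP-1 matches, at 64 and 37 bases. From chr5:88729912 to 88785075, 55.2 kb inside the gene held no peak. The 4 flank peaks, of 10.6 to 31.0 tags, all lay beyond the downstream end.

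MECOM, which encodes the zinc finger factor EVI1 from internal starts and a longer MDS1-EVI1 protein from the upstream start, had 41 peaks over 580 kb at chr3:169083507-169663712, minus strand, of which 32 were inside. The upstream start was not itself under a peak. The nearest, chr3:169661577-169662834, began 878 bp downstream and had 63.0 tags, a fold of 3.24 and a length of 1258 bp. Both internal starts, 516 and 517 kb into the gene, were covered by separate peaks of 44.7 and 38.8 tags. A further peak 1585 bp before them had 51.0 tags. The highest pileup, 66.7 tags at a fold of 6.74 and −log10 q of 37.0, was at chr3:169112124-169112893, 33.6 kb downstream of the internal starts. In the long stretch between the upstream and internal starts, chr3:169497458-169498114 had 57.0 tags and a fold of 8.74, and chr3:169218279-169218760 had 29.4 tags and 9.02, the highest fold among the 172 peaks. At the peak with that highest fold, the background was at the lowest value the caller allowed, 2.37 tags. The highest flank peak, centred 5.22 kb upstream of the gene, had 40.1 tags. Gaps without peaks reached 68.5 kb, from chr3:169149778 to 169218278.

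Of the factors of blood emergence, RUNX1 spans 262 kb at chr21:34787801-35049302 on the minus strand and had 26 peaks, 18 of them inside. RUNX1 is known to be read from a distal and a proximal promoter. At the upstream end, chr21:35048301-35049729 had 38.8 tags, a fold of 2.71 and a length of 1429 bp. The annotated internal start, 161 kb into the gene, lay under the longest peak of all members, 2376 bp at chr21:34887989-34890364, with 62.1 tags and a fold of 2.93. Above both was chr21:34836053-34836928, 213 kb into the gene, with 77.2 tags, a fold of 8.37 and −log10 q of 47.2, which touched an end of the antisense gene RUNX1-AS1. A peak centred 22.2 kb into the gene, chr21:35026647-35027527, had 19.0 tags and a fold of 5.35. An enhancer in the first intron that marks emerging blood cells is known from other work; whether this peak covers it was not tested. In the upstream flank, peaks 2.2 and 35.8 kb away had 58.8 and 49.7 tags.

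GFI1, the repressor of the endothelial programme at chr1:92473043-92486925 on the minus strand, had the lowest number of peaks, 5. The middle of its 3 annotated starts was under a peak of 321 bp, chr1:92485872-92486192, with 24.9 tags and a fold of 2.88, and the others were 733 and 848 bp from the nearest peak. The peak inside the gene, 1.95 kb from the upstream end, had 25.6 tags, the highest of the locus. The 3 flank peaks had 9.61, 15.4 and 11.6 tags. GFI1 was also the member with the lowest maximum pileup, followed by LMO2 at 36.0 tags.

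Long genes meet more peaks by length alone, so each gene was ranked among the 500 protein-coding genes nearest to it in length. In 9 of the 10, the number of peaks was above the median of those genes; over all protein-coding genes, 47.1% were above theirs. LYL1 had 20 peaks against a median of 8, and 99.0% of genes of similar length had fewer. TAL1 had 19 against 9 (96.8% had fewer) and MECOM 41 against 15 (90.0%). RUNX1 had 26 against 14 (77.0%), LMO2 12 against 9 (68.2%), MEF2C 18 against 13 (66.8%), BCL6B 11 against 8 (65.0%), GATA2 11 against 9 (62.2%) and HHEX 9 against 8 (51.4%). GFI1 had 5 against 9, and 17.6% had fewer. The median rank of the members was 67.5%. Neighbouring genes add peaks of their own. When peaks at ends of other protein-coding genes were left out, LYL1 kept 14 peaks (96.8% had fewer), TAL1 18 (99.8%) and BCL6B 7 (61.0%). Peaks inside the bodies of neighbours were kept. At LYL1, all of the 14 but its start peak touched NFIX, NACC1 or IER2, so its rank still holds peaks of neighbours. Among genes of similar length with a like number of coding neighbours, a comparison added after the values were seen, BCL6B ranked at 51.6%, GFI1 at 36.2%, LYL1 at 98.6% and MECOM at 96.4%.

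**Figure D2:**
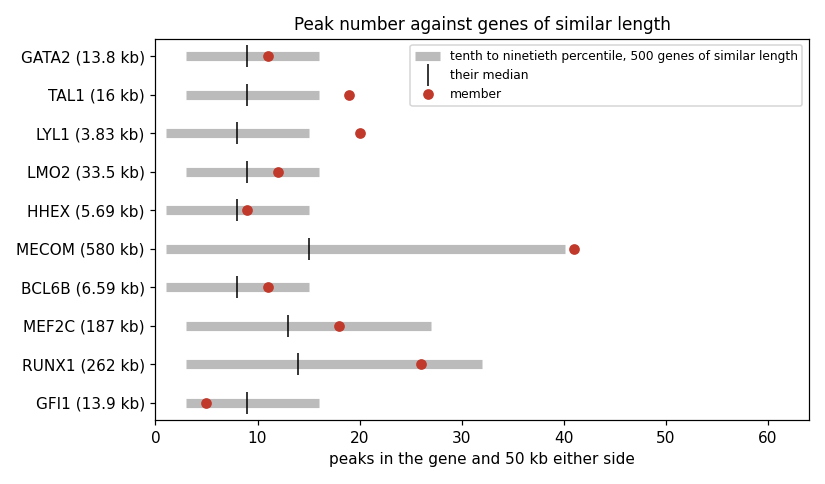
Number of peaks in the gene and 50 kb either side (horizontal axis) for each member (red points), with the median (black tick) and the 10th to 90th percentile (grey bar) of the 500 protein-coding genes nearest in length. TAL1, LYL1 and MECOM lie above the bar, and GFI1 alone lies below the tick.

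Inside the gene alone, the ranks were different for some members. TAL1 had 5 peaks touching the gene against a median of 1 for its length, and 98.8% had fewer. LYL1 had 2 (88.0%) and MECOM 33 (88.2%), while LMO2 had 2 against a median of 2 (34.8%) and BCL6B 1 against 1 (27.4%). As a share of the window, peaks covered 11.1% at LYL1, the most, and 1.6% at GFI1, the least. RUNX1 was covered for 5.04% of its window, more than 90.0% of genes of similar length, whose median was 2.14%.

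A peak at an end was found for 9 of 10 members (90.0%, 95% Wilson interval 59.6% to 98.2%, covering the counting of genes only), and for 72.8% of all protein-coding genes, a share inside that interval. The count rests on peaks of low fold. With peaks of at least 4-fold only, 2 members, LMO2 and BCL6B, kept an end peak, against 56.0% of all protein-coding genes. These peaks lay at the lower-coordinate end of LMO2 (7.61-fold) and the upper-coordinate end of BCL6B (7.13-fold). The larger BCL6B end peak, at 3.79-fold, was lost. Both genes lacked an annotated start entry, so whether the kept peaks lie at a start was not tested. Of the 20 annotated starts, 14 (70.0%) were under a peak, against 64.8% of all starts. Each of the 8 genes with an entry had at least 1 covered start (95% Wilson interval 67.6% to 100%), against 70.2% of all genes with annotated starts. The members held 20 starts in 8 genes and the whole set 22199 starts in 15843 genes. A gene with more starts has more chances of a covered one, so the shares per gene are not alike. At the members' highest end peaks the pileup was ordinary but the fold was low. The median pileup was 42.4 tags, with 4 of 9 above the median of 45.7 tags over all coding genes with an end peak. The median fold was 3.13 against 5.02, and 8 of 9 were below that value, 6 of them in the lowest 10% of genes. GATA2, with a fold of 2.09, stood above 0.254% of genes, TAL1 above 0.788% and RUNX1 above 2.81%. LMO2, by the peak at its lower-coordinate end, stood above 93.5%, with a background at the lowest value the caller allowed, 2.37 tags. The median background over all coding genes with an end peak was 7.88 tags. The fold is computed from the pileup and the local background, so these 2 values also fix the background, which was not measured apart from them.

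Within the loci, the 12 peaks over annotated starts had a median pileup of 45.2 tags, a median length of 986 bp and a median fold of 3.05. In the same 8 genes, the 137 other peaks had medians of 24.5 tags, 424 bp and 3.82. Split by gene end instead of start, the members' end peaks had medians of 40.6 tags, 686 bp and a fold of 3.02. Their inside peaks had 25.5 tags, 477 bp and 3.84. Over all protein-coding genes, end peaks had medians of 40.1 tags, 944 bp and a fold of 4.71, and peaks inside genes 20.3 tags, 415 bp and 4.39. End peaks were thus taller and longer in both, while their fold was the lower at the members and the higher over all genes. Of the 13 peaks with a fold of at least 7, 9 lay in the windows of these 8 genes, all of them at MECOM or RUNX1. None of the 9 lay over an annotated start, and 12 of all 149 peaks of these 8 genes did. At that share few of 9 peaks would lie over a start, so the absence is only a description. The 13 included peaks inside MECOM and RUNX1 and beside LMO2 and BCL6B. The 17 peaks with at least 60 tags lay in the windows of 7 genes, all but LMO2, HHEX and GFI1. Most of those at LYL1 and BCL6B lay inside or at ends of other protein-coding genes, and that at TAL1 lay in the flank. The shares of all 106415 peaks that reach these limits of fold and pileup were not counted.

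**Figure D3:**
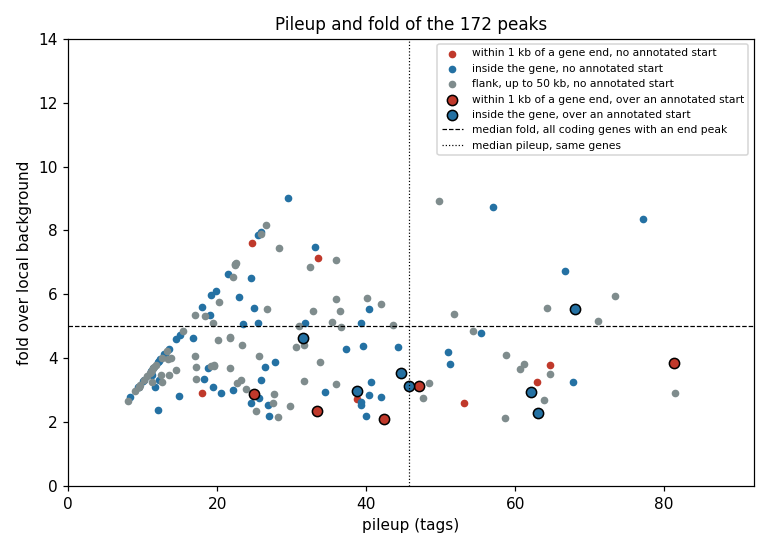
Fold over local background (vertical axis) against pileup in tags (horizontal axis) for the 172 peaks, coloured by place; outlined points lie over an annotated start. The dashed and dotted lines are medians, a fold of 5.02 and a pileup of 45.7 tags, over the highest end peak of each protein-coding gene that had one. Over all end peaks the medians were 4.71 and 40.1 tags. The outlined points lie below the dashed line except the MEF2C peak at 5.53.

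The factors were then set beside related lists. In 25 family members and partners, such as other GATA, RUNX, LMO and MEF2 genes and the E-proteins that pair with TAL1, 17 had an end peak (68.0%, 95% Wilson interval 48.4% to 82.8%). Of all protein-coding genes 72.8% had one, a share inside that interval. GATA4, GATA5, TAL2, LMO3, LDB2, TCF4, RUNX2 and RUNX3 had none. The list held 17 paralogs of 8 members, and 14 had fewer peaks than their member, 2 as many and 1 more. Several paralogs share the same member, so the 17 comparisons, here and by rank, are not independent. No such count was made for genes outside these families, so it is only a description. Against 11 peaks at GATA2, GATA1 had 5, GATA3 2, GATA4 11, GATA5 8 and GATA6 6. TAL2 had 2 against 19 at TAL1, and PRDM16 9 against 41 at MECOM. Against 12 at LMO2, LMO1 had 8, LMO3 none and LMO4 4. RUNX2 had 14 and RUNX3 16 against 26 at RUNX1. Against 18 at MEF2C, MEF2A had 14, MEF2B 11 and MEF2D 15, and BCL6 had 11, as BCL6B did. These genes differ in length. Ranked among genes of similar length, 14 paralogs stood below their member and 3 above it: RUNX3 at 82.0% against 77.0%, MEF2D at 79.4% against 66.8% and GFI1B at 53.4% against 17.6%. TCF4, an E-protein gene of 414 kb, had 32 peaks, all inside it. The cofactor LDB1, which joins LMO2 in the complex, had 14 peaks and ranked at 80.8%. GFI1B, the relative of GFI1 used in red cells and platelets, had 10 peaks against 5 at GFI1.

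Of 11 endothelial ETS, SOX and KLF factors, 10 had an end peak, FLI1 being without. Their median rank by peak number was 78.6%, and ETS1, with 33 peaks, ranked at 98.8%. For comparison, 72.8% of all protein-coding genes had an end peak, and 47.1% had more peaks than the median of genes of similar length. Of 10 factors listed as blood-restricted, 8 had an end peak, IKZF1 and TCF7 being without, and the median rank was 46.3%. Their peak numbers ran from 1 at CEBPA to 15 at PAX5. The name of this list is a label, and restriction of its genes to blood was not tested. GATA1 and GFI1B stand both in it and among the family members. At annotated starts, a peak was found over 4 of 13 starts of the blood-restricted factors (30.8%), in 4 of 9 genes (95% Wilson interval 18.9% to 73.3%), beside 14 of 20 starts in 8 of 8 genes for the haemato-endothelial factors. These intervals overlap. The line's identity was read from markers. All 11 endothelial markers, among them PECAM1, CDH5 and VWF, had an end peak and more peaks than the median of their length class, while 5 of 7 blood cell markers had an end peak and 3 of 7 more peaks than that median. Those 3 were CD34, which endothelium also carries, with 20 peaks (rank 97.2%), the leukocyte gene PTPRC with 16 (66.0%) and the T cell gene CD3E with 10 (52.8%). Of 5 mural and astrocyte markers 4 had an end peak and 2 had more peaks than the median, PDGFRB with 17 (89.8%) and GFAP with 16 (89.6%). Neither an end peak nor the peak number by itself separated the cell types.

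**Figure D4:**
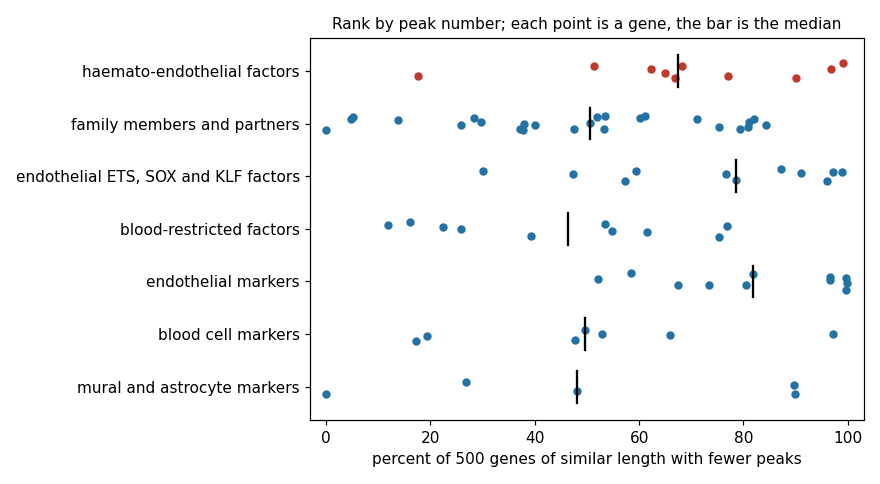
Percent of the 500 protein-coding genes nearest in length that had fewer peaks (horizontal axis) for each gene of 7 lists (rows); points are genes and bars are list medians. The haemato-endothelial factors run from 17.6% at GFI1 to 99.0% at LYL1, with a median of 67.5%, and the blood-restricted factors have a median of 46.3%.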

How the data were processed

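Per the file headers, broad peaks were called by the authors in MACS version 2.2.7.1 from a single library with no control track. Tags were shifted (−100 bp), extended (200 bp) and read in single-end mode, and 22188172 of 31532245 were kept. The deposited columns are the pileup signal, the fold ratio over a background within 10000 bp (low peaks fit a ratio with 1 tag added to both terms), and −log10 p and q. The effective genome size in the header, 1870000000 bp, is the caller's mouse preset. It sets the floor of the background (2.37 tags) and, with it, which peaks are called. The submitters' processing notes name Bowtie2, SAMtools 1.13, Picard and the builds GRCh38 and mm10 without their roles. Coordinates were checked against RefSeq GRCh38.p14: 64.8% of annotated starts of protein-coding genes were under a peak, and 5.8% at an offset of 10 kb either way. The RNA tables list Ensembl transcripts that the tables at hand do not pair with genes, and were not used here.

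Counts used Python 3.11.15 with pandas 2.3.3; overlaps needed 1 bp, and the counting was tested on simulated data. The 500 nearest genes by length exclude the gene itself. Motifs were searched in the 250 bases before each start, on both strands. Wilson intervals used statsmodels 0.14.6. The members, lists and motifs were chosen with earlier results of these data known. All members are named, and for each the highest peak at an end, inside and in the flank is given. Of the lists of factors and partners, the genes with the most and fewest peaks, those without an end peak and all paralogs of a member are named. Partners and markers named beyond these were singled out after their values were seen. The alternatives were flanks of 20 and 100 kb, end windows of 500 and 2500 bp, filters of −log10 q of at least 5 and fold of at least 4, an overlap of 200 bp, peak midpoints, starts only, 200 or 1000 nearest genes, covered share, summed signal, gene body alone, and peaks at other genes' ends left out.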

Additional observations from a re-analysis of the deposited data

How the results depend on the processing

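Of 21 alternative values for the total of peaks, the count of members with an end peak and the count ranking above genes of similar length, 18 stayed near the reported value (within 1.5-fold for the numbers of peaks and of ranks, within the Wilson interval for end peaks) and 3 moved. With peaks of at least 4-fold only, the 172 peaks became 77 and the members with an end peak fell from 9 to 2, LMO2 and BCL6B, while the share over all coding genes became 56.0%. With annotated starts alone, 8 genes of the 8 with an entry had a peak. With −log10 q of at least 5, 6 members kept an end peak; GATA2, TAL1 and GFI1 lost theirs, and the share over all coding genes became 66.7%. An end window of 500 bp left 7, without MECOM and GFI1, and the share over all coding genes became 69.2%. The count above genes of similar length ran from 7 to 9 over the alternatives. Single ranks moved further: GATA2 from 41.0% (−log10 q of at least 5) to 88.6% (flank of 100 kb), LMO2 from 28.8% (summed signal) to 84.8%, BCL6B from 27.4% (gene body alone) to 88.2% (flank of 20 kb), HHEX from 37.4% to 80.0% and GFI1 from 4.2% to 52.0%. TAL1 stayed at or above 68.2%, LYL1 88.0%, MECOM 83.4%, RUNX1 70.8% and MEF2C 55.0%. The cause of these moves was not tested. No paired analysis was possible because only 1 ATAC library was analysed. At this depth no peak of these windows had under 8.0 tags, so weaker accessibility could not be seen.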

Other observations

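GATAA, on either strand, began 20 to 40 bases before 5 of the 20 annotated starts (25.0%), in 4 of 8 genes: TAL1 at 35 bases, HHEX at 30, LYL1 at 27 and 2 starts of MECOM at 30 and 29. Over all annotated starts of protein-coding genes, 427 of 22199 (1.92%) held such a match there. This range of distances was chosen after the matches had been seen, so the count is a description. As background, a TATA box, where a gene has one, lies in this stretch. At HHEX and the upstream start of MECOM the match reads GATAA along the gene, and at the others TTATC. All but the upstream start of MECOM were under a peak.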
